A study of Mus musculus with 22 samples.

Results

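Zscan4c, Zscan4d, Zscan4f, Tdpoz1 and Eif1a are mouse genes whose transcripts are known from the 2-cell embryo. They were taken by symbol from a table of counts per gene, and all 5 were found among its 21881 symbols. Their counts were read in every library of embryos and of stem cell lines derived from the early embryo.

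The table covers 22 RNA sequencing libraries: 8 from embryos of day 3.5 after fertilization (E3.5) and 14 from 7 stem cell lines. The embryos were 4 Nanog-null, 2 Nanog-heterozygous and 2 wild-type embryos, each genotype with as many females as males. The lines were 2 embryonic stem (ES), 3 trophoblast stem (TS) and 2 extraembryonic endoderm (XEN) lines, all Nanog wild type, each with 2 technical replicate libraries from different passages. Nanog encodes a homeodomain factor of pluripotent cells, and the series compared embryos with and without it and the lines of the 3 lineages. ES cells stand for the epiblast, TS cells for the trophectoderm and XEN cells for the primitive endoderm. ES cell 1 was female and ES cell 2 male, both labelled serum free. TS cell 1 and TS cell 2 were female, TS cell 3 male, and both XEN lines male, with no medium in their labels. The labels name no Nanog allele, no strain and no number of founders of a line. Embryo libraries were made from amplified cDNA and line libraries with another kit, so no test was made between them and a level in one is not set against a level in the other.

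Zscan4 genes encode proteins with a SCAN domain and zinc fingers that are made when the zygotic genome is first transcribed and that have been tied to telomere maintenance. In ES cultures they are known to come on only in rare cells that pass briefly through a state resembling the 2-cell embryo. Tdpoz1 encodes a protein with TRAF and POZ domains, the pair found in Spop, an adaptor of a ubiquitin ligase, and Eif1a encodes a form of the translation initiation factor eIF1A.

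The windows around the annotated starts of the 3 Zscan4 members and of Tdpoz1 are printed because the 3 Zscan4 rows below cannot be read as 3 independent genes and the letters show how alike these copies are. Each runs from 250 bases before the start to 50 bases after it, written 5′ to 3′ on the strand of the gene, from RefSeq on GRCm38.p6. Zscan4c is at chr7:11005495-11005794 on the plus strand, Zscan4d at chr7:11166099-11166398 on the minus strand and Zscan4f at chr7:11397665-11397964 on the plus strand, and Tdpoz1 is at chr3:93676234-93676533 on the minus strand. The capitals mark a match to TATANA, the letters of a TATA box.

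Zscan4c: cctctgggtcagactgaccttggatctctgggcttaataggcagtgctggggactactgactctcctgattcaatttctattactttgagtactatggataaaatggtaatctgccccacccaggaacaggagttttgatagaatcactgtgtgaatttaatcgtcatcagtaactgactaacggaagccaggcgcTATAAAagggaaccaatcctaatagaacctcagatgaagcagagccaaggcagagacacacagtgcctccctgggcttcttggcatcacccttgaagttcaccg

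Zscan4d: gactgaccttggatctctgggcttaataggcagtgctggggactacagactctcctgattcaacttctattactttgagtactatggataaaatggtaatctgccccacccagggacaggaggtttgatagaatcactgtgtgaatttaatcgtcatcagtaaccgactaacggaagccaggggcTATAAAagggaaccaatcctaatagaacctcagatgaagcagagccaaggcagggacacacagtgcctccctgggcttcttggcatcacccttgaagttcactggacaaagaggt

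Zscan4f: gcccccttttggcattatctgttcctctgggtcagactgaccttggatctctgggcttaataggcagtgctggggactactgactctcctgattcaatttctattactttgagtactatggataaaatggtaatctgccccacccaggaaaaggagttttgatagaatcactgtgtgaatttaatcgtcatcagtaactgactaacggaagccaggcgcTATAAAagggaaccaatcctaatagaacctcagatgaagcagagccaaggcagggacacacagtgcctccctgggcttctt

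Tdpoz1: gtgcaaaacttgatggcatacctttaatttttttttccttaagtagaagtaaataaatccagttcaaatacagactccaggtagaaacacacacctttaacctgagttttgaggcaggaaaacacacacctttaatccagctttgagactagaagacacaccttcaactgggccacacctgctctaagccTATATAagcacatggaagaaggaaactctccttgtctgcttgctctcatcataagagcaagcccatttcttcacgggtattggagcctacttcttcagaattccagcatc

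In local alignment Zscan4c and Zscan4f were identical at 99.28% of 277 aligned positions, Zscan4c and Zscan4d at 97.56% of 287, and Zscan4d and Zscan4f at 97.37% of 266. The marked TATANA began 54 bases before the annotated start in Zscan4c, 65 in Zscan4d, 31 in Zscan4f and 60 in Tdpoz1, so in the Zscan4 windows the same letters lie at different distances because the annotated starts differ. A first search limited to the usual distance of a TATA box marked Zscan4f alone, and the wider search was chosen after that was seen. TATANA occurred on the strand of the gene in 17.98% of the 32851 windows of the table and on either strand in 24.67%. The windows of Tdpoz1 and Tdpoz9 were identical at 99.63% of 273 aligned positions, and no search for the nearest of all windows was made. Eif1a is on chromosome 18.

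The transcripts share long stretches as well. In an annotation of GRCm38, 85.5% of the 50-base words of Zscan4c, 95.3% of those of Zscan4f, 49.6% of those of Zscan4d and 45.1% of those of Tdpoz1 also occurred in another gene, against 4.05% for Eif1a. How the authors treated reads that match several places is not given in the sources used here. The counts of Zscan4c and Zscan4f differed by at most 2 in any of the 22 libraries, so their values are given as those of rows, not of separate genes.

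Total counts were 8.20 to 9.55 M (mega-counts) in ES, 9.97 to 16.5 M in TS, 12.7 to 23.7 M in XEN and 14.8 to 32.2 M in embryo libraries. A row with no count in a line library can hide a level of up to 0.127 to 0.366 CPM (counts per mega-count of the library total), the level of 3 counts, and in an embryo up to 0.0931 to 0.203 CPM. All intervals and limits cover counting error only. Nanog had 6 to 12 counts in null embryos, 791 and 2038 in heterozygous embryos and 3238 and 3456 in wild-type embryos, as the labels say. In the lines each lineage's summed markers stood highest in its own libraries, with ES markers at 6178 to 7335 CPM in ES, 362 to 882 CPM in TS and 120 to 217 CPM in XEN libraries. Other cells' transcripts also appeared: summed fibroblast markers were at 4.99 to 7.33 CPM in ES, 11.8 to 222 CPM in TS and 0.158 to 11.1 CPM in XEN libraries.

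Zscan4 rows were higher in ES than in TS lines. Zscan4c, Zscan4d and Zscan4f were found in all 4 ES libraries at low level, at or near 0 in most TS libraries, and at a few counts in 3 of 4 XEN libraries. All 6 Zscan4 rows of the table passed the test against TS, and 1 of 6 passed it against XEN. All 6 rows entered the test through the ES lines, since they would not have passed the filter on low counts with TS and XEN lines alone, so the number called is a description of rows that were high in ES to begin with.

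For Zscan4c the ES libraries had 21 and 8 counts in ES cell 1 and 57 and 17 counts in ES cell 2. The TS libraries had 0 and 0 in TS cell 1, 0 and 5 in TS cell 2 and 0 and 1 in TS cell 3, and the XEN libraries had 4 and 3 in XEN cell 1 and 13 and 0 in XEN cell 2. Every ES library lay above every TS and XEN library in CPM, although 1 XEN library came near the lowest ES library. How many of all genes separate the lineages in this way was not counted. As levels these were 2.56, 0.868, 5.97 and 1.82 CPM in ES, at most 0.412 CPM in TS and at most 0.666 CPM in XEN libraries. With the 2 libraries of a line summed, Zscan4c stood 4.93 ± 1.07 log2 units (SE) higher in ES than in TS lines, with an adjusted p of 0.00989 (edgeR quasi-likelihood test, Benjamini-Hochberg over 14687 genes, 2 ES, 3 TS and 2 XEN lines). The ES lines averaged 2.79 ± 1.59 CPM and the TS lines 0.0892 ± 0.117 CPM (SD over lines, n = 2 and n = 3).

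Zscan4d had 17, 3, 41 and 12 counts in the ES libraries in the same order. It had 0, 0, 1, 5, 0 and 1 in TS and 5, 1, 8 and 0 in XEN libraries. Here the groups overlapped, since the second library of ES cell 1, at 0.325 CPM, lay below the highest TS library at 0.412 CPM and the highest XEN library at 0.410 CPM. Zscan4d was 4.22 ± 1.08 log2 units higher in ES than in TS lines (adjusted p = 0.0186, edgeR).

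Zscan4f had 22, 7, 58 and 18 counts in ES, 0, 0, 0, 5, 0 and 1 in TS and 6, 3, 12 and 0 in XEN libraries. ES did not overlap with either lineage in CPM, for which again no share over all genes was counted, and the row followed Zscan4c library by library. Its difference between ES and TS lines was 4.96 ± 1.04 log2 units (adjusted p = 0.00895, edgeR). Thus 3 of the 4 members tested were called higher in ES than in TS. The comparison called 20% of all genes tested higher in ES and 41.3% in either direction. These 3 rows passed the filter only through the ES lines, and Zscan4c and Zscan4f held nearly the same counts. Their share therefore describes rows that were high in ES to begin with. Summed into 1 row, Zscan4c, Zscan4d and Zscan4f stood 4.73 ± 1.18 log2 units higher in ES than in TS (adjusted p = 0.0171, edgeR).

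These calls depended on which ES lines were in the fit. With 1 ES line left calls against TS were lost whichever line it was, and fewer of all genes were called too. Without ES cell 2 the differences between ES and TS were 4.20, 3.46 and 4.21 log2 units for Zscan4c, Zscan4d and Zscan4f (edgeR). Without ES cell 1 the Zscan4d difference was 4.69 log2 units (edgeR). Without the first library of ES cell 2 alone, the one with the most counts, 6 of 6 were called, a setting chosen after seeing the data. In these bulk libraries fewer cells with the transcript and less of it in each cell cannot be told apart.

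Between ES and XEN lines the 3 rows stood 2.89 ± 1.07, 2.91 ± 1.13 and 2.86 ± 1.05 log2 units higher in ES, and their adjusted p of 0.0615, 0.0712 and 0.0589 missed the threshold of 0.05 (edgeR, 23.4% of genes called higher in ES and 45.1% in either direction). Their unadjusted p were under 0.05, and DESeq2 called 2 of the 6 Zscan4 rows. Where edgeR called 1 of the 6 with all lines, it called 6 without TS cell 1, 5 without TS cell 2 and 0 without TS cell 3. The call was also lost with 1 ES or 1 XEN line left, where fewer of all genes were called too. For Zscan4c the ES lines averaged 2.79 ± 1.59 CPM and the XEN lines 0.295 ± 0.154 CPM (SD, n = 2 each). Without the first library of XEN cell 2 the difference was 4.15 log2 units for Zscan4c and 3.86 for Zscan4f, with adjusted p of 0.0346 and 0.0447 (edgeR), a setting chosen after the data were seen, and 5 of the 6 rows were called. Between TS and XEN lines the differences were −2.05 ± 1.11, −1.31 and −2.10 log2 units, with adjusted p of 0.186, 0.408 and 0.166 (edgeR, 36.7% of genes called).

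XEN cell 2 shows how uneven these counts were within a line. Its first library had 33 counts over Zscan4c, Zscan4d and Zscan4f and its second had 0. The same libraries had 3 and 4 counts of Nanog and 55 and 57 of Pou5f1, the pluripotency factor that ES libraries held at 12601 counts or more. All 8 ES markers had counts in both, with a summed level of 217 CPM in the first library and 120 CPM in the second, against 6178 to 7335 CPM in ES libraries. Fibroblast markers stood at 11.1 CPM in the first library and at 0.158 CPM in the second. The part of these transcripts in the difference was not tested.

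**Figure D1:**
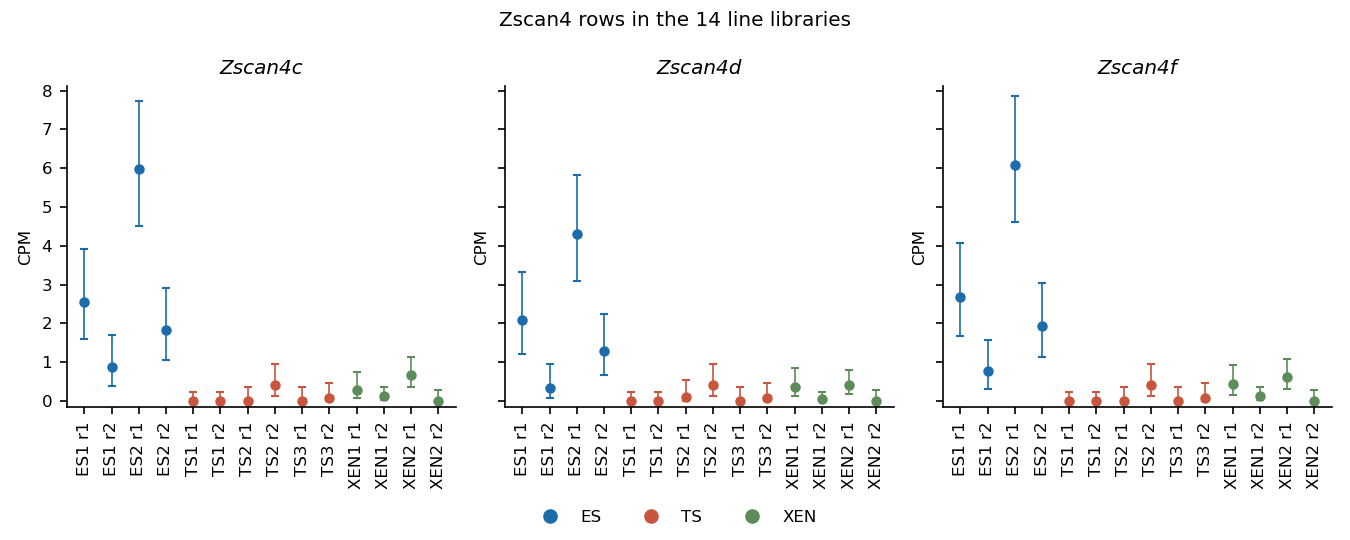
Level of Zscan4c, Zscan4d and Zscan4f in CPM in each of the 14 line libraries, named by line and technical replicate (r1, r2), with exact 95% counting intervals as bars. ES cell 2 replicate 1 is highest in each panel, at 5.97 CPM for Zscan4c, and the TS libraries reach at most 0.412 CPM.

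The ES passages differed widely as well. ES cell 1 had 60 and 18 counts over Zscan4c, Zscan4d and Zscan4f and ES cell 2 had 156 and 47. In each ES line all 6 Zscan4 rows were higher in CPM in the library labelled technical replicate 1. Among all genes of the same range of counts in ES, 10 to 105, 64.9% were higher in that library in ES cell 1 and 39.9% in ES cell 2. The labels do not say which passage a number stands for.

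No Zscan4 row passed the test between ES cell 1 and ES cell 2 by edgeR or DESeq2, and 0 of 6 had an unadjusted p under 0.05. Zscan4c was −1.17 ± 0.98 log2 units, Zscan4d −1.22 ± 1.02 and Zscan4f −1.21 ± 1.00 in ES cell 1 relative to ES cell 2, with an adjusted p of 0.986 for Zscan4c (edgeR, 14 libraries as 7 pairs of passages, 0.302% of genes called and 0.055% called lower in ES cell 1). P-values in this comparison measure only the spread between passages, which the labels call technical.

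The other 3 Zscan4 rows of the table moved with the members. Zscan4a had 16, 3, 47 and 20 counts in the ES libraries, Zscan4b had 8, 8, 36 and 12, and Zscan4e had 8, 4, 39 and 13. RefSeq annotates Zscan4a and Zscan4e as pseudogenes and Zscan4b as protein coding. Zscan4a was 4.92 and Zscan4b 4.80 log2 units higher in ES than in TS, with adjusted p of 0.0113 and 0.00984 (edgeR). Zscan4e was called too, with an adjusted p of 0.00549 (edgeR), and since it had 2 counts over all TS libraries its level is better given as a ratio of summed CPM, 68.0 with an exact 95% counting interval of 18.1 to 574. Zscan4a alone passed the test against XEN, at 3.23 ± 1.12 log2 units (adjusted p = 0.0493, edgeR).

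Among 14684 other genes, those whose log2 CPM followed the sum of Zscan4c, Zscan4d and Zscan4f most closely over the 14 line libraries were Zscan4b, Zscan4a and Zscan4e, with Pearson r of 0.96, 0.96 and 0.95. Exph5 and Sema4a came next, each at 0.94. The 14 libraries share 7 lines and 3 lineages, so these values describe the pattern over lineages as much as that over passages. Of the 50-base words of Zscan4c, 30.0% occur in Zscan4b, 50.8% in Zscan4a and 32.4% in Zscan4e. Whether the same reads were counted in several Zscan4 rows was not tested.

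Zscan4 rows had no count in any of the 8 embryos. The limit that 0 counts allow was 0.137 to 0.183 CPM in null, 0.129 to 0.203 CPM in heterozygous and 0.0931 to 0.127 CPM in wild-type embryos. All 6 rows were removed by the filter on low counts in the embryos, and no embryo comparison was made for them.

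Tdpoz1 had few counts in the lines. It had 1, 0, 2 and 0 counts in the ES libraries and none in the 10 TS and XEN libraries, and it did not pass the filter in the lines. Every embryo had a count. The null embryos had 193 and 356 counts in females and 1 and 895 in males, the heterozygous embryos had 88 in the female and 14 in the male, and the wild-type embryos had 77 in the female and 17 in the male. In CPM these were 11.8, 16.3, 0.0520 and 44.8 in null, 3.78 and 0.948 in heterozygous, and 3.26 and 0.527 in wild-type embryos. Of the null embryos 3 lay above all embryos with Nanog and 1, the first male, lay below all of them, so the groups overlapped.

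Tdpoz1 did not pass the test between null and Nanog-bearing embryos. Null embryos averaged 18.2 ± 18.97 CPM and Nanog-bearing embryos 2.13 ± 1.63 CPM (SD, n = 4 each). The fitted difference was 3.64 ± 1.67 log2 units, with an adjusted p of 0.931 (edgeR with sex as a term, 12965 genes), and 0.0154% of all genes tested were called. DESeq2 gave 3.71 log2 units and an adjusted p of 0.186. Without the second null male the difference was 0.69 log2 units (adjusted p = 1, edgeR), so the fitted size depended on that embryo. The only null male then left in the fit with a sex term was the one with 1 count. Both null females, at 11.8 and 16.3 CPM, still lay above all Nanog-bearing embryos. The second null male also held fibroblast transcripts, 67 counts of Dcn and 12 of Lum, as did the second null female with 42 and 13. Over 8 fibroblast markers the null females had 43 and 126 counts, the 43 from 1 gene, and the second null male had 125. The first null male, with 1 count of Tdpoz1, had 0, and the Nanog-bearing embryos had 1 to 5. The part of these transcripts in the Tdpoz1 counts was not tested. Against wild type alone null embryos stood 3.85 ± 2.19 log2 units higher, and heterozygous embryos stood 0.41 ± 1.97 above wild type, neither of which passed the test.

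The other Tdpoz genes of the table did not share this order of embryos. Tdpoz2 had 0 and 58 counts in null females and 0 and 1 in null males, with 174 and 66 in heterozygous and 33 and 51 in wild-type embryos. Tdpoz5 had 10, 18, 4 and 226 counts in null, 548 and 80 in heterozygous and 324 and 382 in wild-type embryos. For both genes most null embryos lay below the Nanog-bearing ones and 1 null embryo did not, a different embryo for each gene.

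Tdpoz4 had 1, 3, 26 and 15 counts in null, 17 and 17 in heterozygous and 15 and 19 in wild-type embryos. Tdpoz3 reached at most 13 counts in a null, 0 in a heterozygous and 2 in a wild-type embryo, and it did not pass the filter. The fitted differences between null and Nanog-bearing embryos were −3.50 ± 2.55 log2 units for Tdpoz2, −1.05 ± 1.95 for Tdpoz4 and −2.47 ± 1.74 for Tdpoz5, none of them called by edgeR or DESeq2, with 0 of 4 Tdpoz genes under an unadjusted p of 0.05 in edgeR. In the lines Tdpoz5 had no count, Tdpoz2 had 1 and Tdpoz3 had 6, all in ES, and Tdpoz4 had 6 in ES and 1 in XEN libraries.

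The row most like Tdpoz1 over the 8 embryos was Gm9125, with a Pearson r of 0.99 among 12964 genes. RefSeq gives Gm9125 as an older name of Tdpoz9, the gene with the near-identical promoter window. Of the 50-base words of Tdpoz1, 40.7% occur in Gm9125 and 44.5% in Gm9117. Gm10697, an older name of Tdpoz7, had the same count as Tdpoz5 in all 8 embryos. Tdpoz5 and Gm10697 thus hold no separate information here, while Tdpoz1 and Gm9125 had 1644 and 773 counts in all, and whether reads were counted in both was not tested. Glt1d1 followed Tdpoz1 with r = 0.97 and is no Tdpoz gene.

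**Figure D2:**
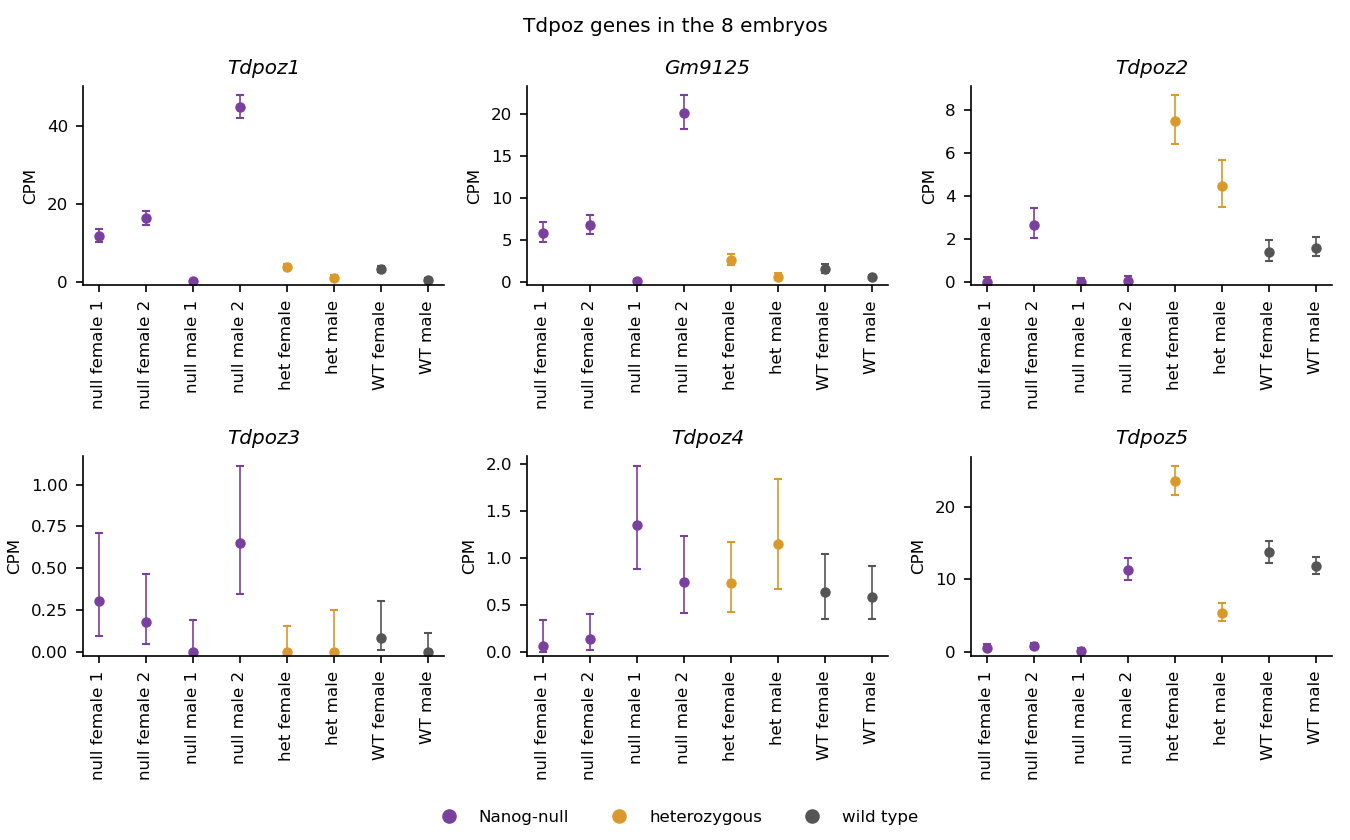
Level of Tdpoz1, Gm9125 (Tdpoz9), Tdpoz2, Tdpoz3, Tdpoz4 and Tdpoz5 in CPM in each of the 8 embryos, with exact 95% counting intervals as bars and a separate scale in each panel. Tdpoz1 is highest in the second null male, at 44.8 CPM, and lowest in the first null male, at 0.0520 CPM.

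Eif1a had many counts in every library. The ES libraries had 246 and 297 CPM in ES cell 1 and 280 and 249 CPM in ES cell 2. The TS libraries had 242 and 229, 249 and 268, and 331 and 366 CPM in TS cell 1, TS cell 2 and TS cell 3, and the XEN libraries had 122 and 145 CPM in XEN cell 1 and 131 and 169 CPM in XEN cell 2. Every ES and TS library lay above every XEN library, and ES and TS overlapped. The share of all genes that separate the libraries in this way was not counted.

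Eif1a was higher in TS than in XEN lines by 0.74 ± 0.23 log2 units (adjusted p = 0.0436, edgeR, 20.3% of genes called higher in TS). The TS lines averaged 282 ± 60.4 CPM (SD, n = 3) and the XEN lines 141 ± 6.93 CPM (SD, n = 2). This call is near the threshold, and leaving out ES cell 1, ES cell 2, TS cell 2, XEN cell 1 or XEN cell 2 gave differences of 0.68 to 0.85 log2 units with adjusted p of 0.0577 to 0.170 (edgeR). Without the first library of XEN cell 2 it was 0.62 with an adjusted p of 0.111 (edgeR). ES lines, at 269 ± 5.98 CPM (SD, n = 2), stood 0.59 ± 0.25 log2 units above XEN lines (adjusted p = 0.0937, edgeR) and −0.15 ± 0.23 relative to TS lines (adjusted p = 0.635, edgeR). Between ES cell 1 and ES cell 2 the difference was 0.08 ± 0.20 log2 units.

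In the embryos Eif1a had 523 and 395 CPM in null females, 394 and 312 CPM in null males, 387 and 336 CPM in heterozygous embryos and 342 and 336 CPM in wild-type embryos. The null range enclosed that of the other embryos. Null embryos stood 0.31 ± 0.21 log2 units above Nanog-bearing embryos (adjusted p = 0.962, edgeR), 0.36 ± 0.27 above wild type, and heterozygous embryos 0.10 ± 0.30 above wild type.

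**Figure D3:**
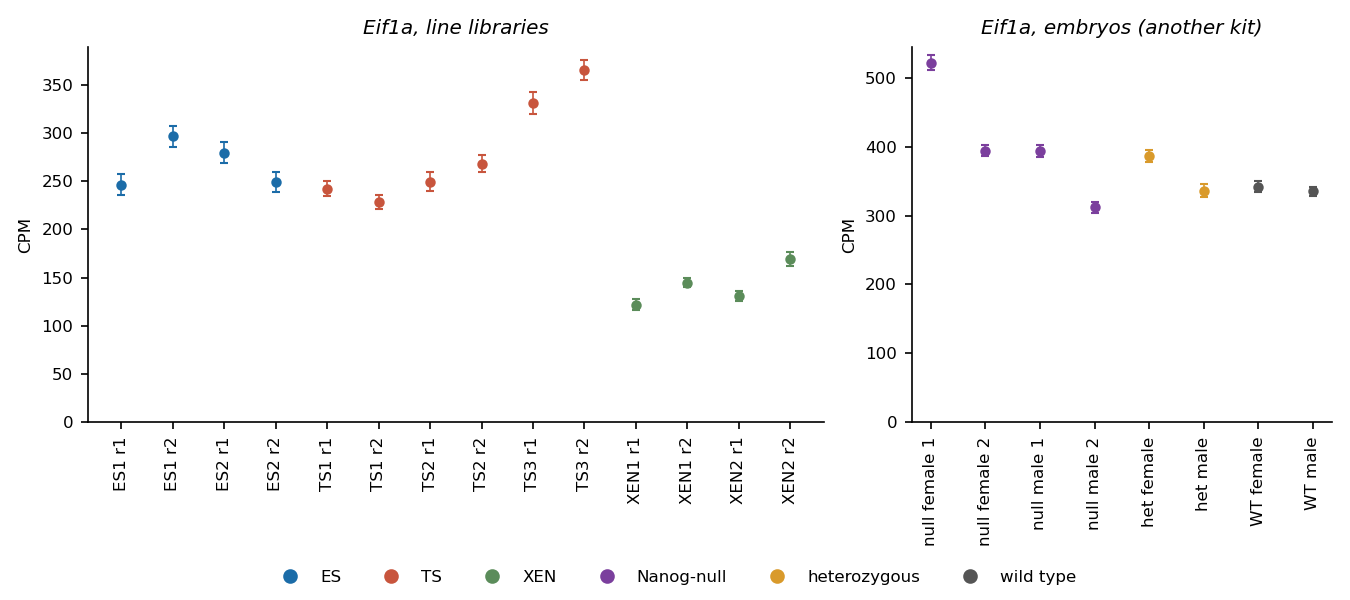
Level of Eif1a in CPM in the 14 line libraries (left) and the 8 embryos (right, made with another kit and not comparable with the left panel), with exact 95% counting intervals as bars. XEN libraries lie at 122 to 169 CPM, below all ES and TS libraries, and the null embryos span the range of the others.

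Eif1ax, the X-linked gene for the same factor, was ordered differently over the lineages. The lineages differ in the sexes of their lines and the fit of lines had no sex term, so the part of sex was not tested. The ES libraries had 136, 174, 123 and 114 CPM, the TS libraries 50.8 to 72.6 CPM and the XEN libraries 42.7 to 110 CPM. It was called higher in ES than in TS, by 1.11 ± 0.19 log2 units (adjusted p = 0.00416, edgeR), and higher in ES than in XEN, by 0.73 log2 units (adjusted p = 0.0269, edgeR). Eif1ad, which encodes a protein with the same domain, was called lower in ES than in XEN, at −0.62 log2 units (adjusted p = 0.0314, edgeR), and lower in TS than in XEN, at −0.79 log2 units (adjusted p = 0.0102, edgeR).

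Of the 10 rows listed with Eif1a as relatives or copies, 1 was called higher and 0 lower in ES than in TS, 2 higher and 1 lower in ES than in XEN, and 1 higher and 1 lower in TS than in XEN. Their median difference was 0.13, 0.64 and 0.54 log2 units in these comparisons, beside medians of −0.02, 0.05 and 0.02 over all genes. The shares called in either direction, 10%, 30% and 20%, lay below the 41.3%, 45.1% and 36.7% of all genes. Some of the 10 rows held nearly the same counts in the lines. Gm2022 and Gm2016 had 99 and 99 counts in the first library of XEN cell 1 and 216 and 215 in the second. The medians and shares are therefore not over 10 separate genes, and whether reads were counted in several rows was not tested. Of 9 tested, 0 were called between null and Nanog-bearing embryos by edgeR or DESeq2, and 0 had an unadjusted p under 0.05. Over all 12965 genes edgeR called 0.0154% there, and 644 were under that unadjusted p. The call higher in ES than in TS, that of Eif1ax, was lost without ES cell 1. In ES against XEN the calls were lost without ES cell 1, XEN cell 1 or XEN cell 2. Fewer of all genes were called in these fits too. Without TS cell 3, 4 were called higher and 1 lower in ES than in XEN, and more of all genes were called. Mul1 and Etf1 were the genes most like Eif1a over the line libraries, with Pearson r of 0.96 and 0.95. Over the embryos Pknox1 was most like it, with r of 0.96.

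**Figure D4:**
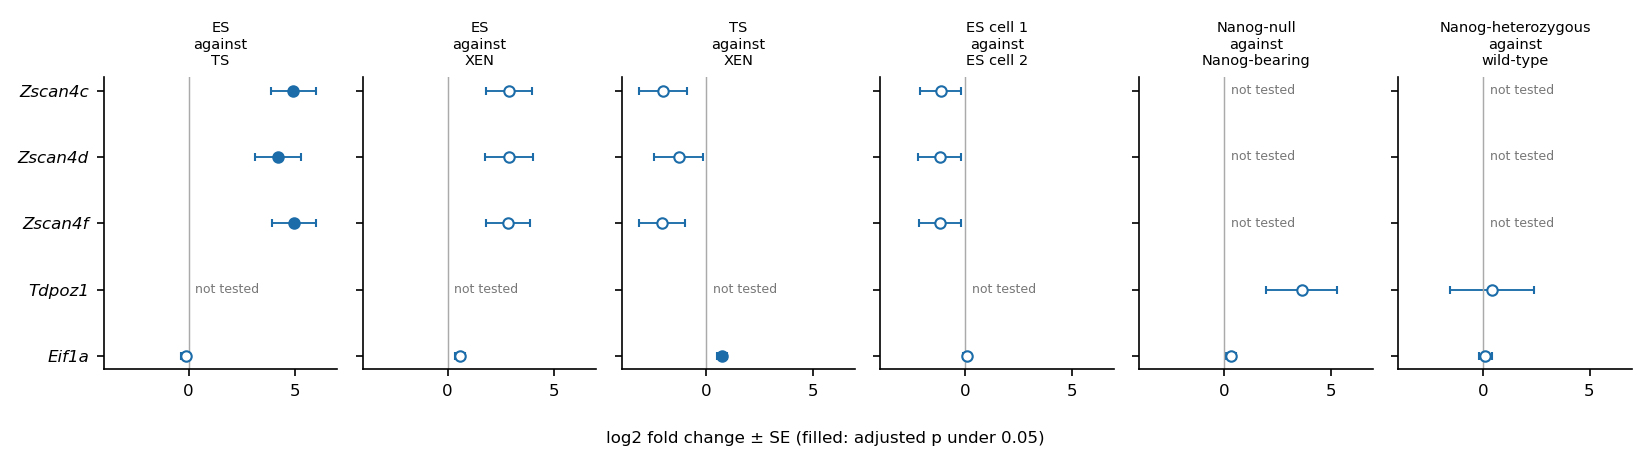
Fitted log2 fold change of each member with its standard error in 6 comparisons, the group named first over the group named second. Filled points passed an adjusted p of 0.05. The 3 Zscan4 rows are filled for ES against TS, at 4.22 to 4.96, and Eif1a for TS against XEN, at 0.74.

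Some other genes known from the 2-cell embryo were called higher in ES lines, most of them genes with few counts elsewhere. Of 55 listed, 38 were in the table and 16 passed the filter in the lines. Of the 16, 7 passed it only through the ES lines, and 3 of these 7, Gm13040, Gm13057 and Gm13043, hold the same counts up to a factor. In ES against TS 8 of 16 were called higher and 2 lower, beside 20% and 21.3% of all genes, and 7 of the 8 were genes that passed the filter only through ES. In ES against XEN 7 were called higher and 1 lower, beside 23.4% and 21.8% of all genes, and 5 of the 7 were such genes. Of the 9 that would have passed without the ES lines, 1 was called higher and 2 lower against TS and 2 higher and 1 lower against XEN. That is 33.3% in either direction in both comparisons, below the 41.3% and 45.1% of all genes. With 1 ES line left fewer of the 16 were called in both comparisons, and with 1 XEN line left fewer against XEN. Fewer of all genes were called in these fits too.

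Gm13119, which RefSeq now names Pramel31, had 22, 2, 11 and 19 counts in the ES libraries, 2 over all TS and none in XEN libraries. Its summed level was 57.4 times that in TS, with an exact 95% counting interval of 15.1 to 486, and at least 34.6-fold higher than in XEN, where the floor is 3 counts over the group. Both differences were called, with adjusted p of 0.00398 and 0.00312 (edgeR). Unlike Zscan4, it was not highest in the first library of ES cell 2.

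A430089I19Rik was at least 14.9-fold higher in ES than in TS, where it had no count (adjusted p = 0.00807, edgeR). Gm13043 was called in both comparisons, with 29 counts over ES, 2 over TS and 1 over XEN libraries. Zbtb45, a zinc-finger gene, was 1.07 ± 0.26 log2 units higher in ES than in XEN (adjusted p = 0.0133, edgeR). The called genes in the other direction were Slc2a6, a sugar transporter gene, at −4.15 ± 0.81 log2 units in ES relative to TS (adjusted p = 0.00657, edgeR), Gm8994 at −0.85 ± 0.18 in the same comparison and Dcaf11 at −1.10 ± 0.30 in ES relative to XEN.

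Some genes were picked after their values were seen. Dux, whose product activates the Zscan4 genes, had 7, 0, 0 and 3 counts in the ES libraries, none in TS and 1, 0, 1 and 0 in XEN libraries, and did not pass the filter. The library with the most Zscan4 counts, the first of ES cell 2, had no Dux count, where 0 allows up to 0.314 CPM. Zfp352 had 6, 1, 4 and 0 counts in ES and Gm4340 had 86, 58, 138 and 88, and their orders of libraries differed. Gm13040 and Gm13057 had identical counts, 3 times those of Gm13043 in every line library, so these 3 rows hold no separate information.

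**Figure D5:**
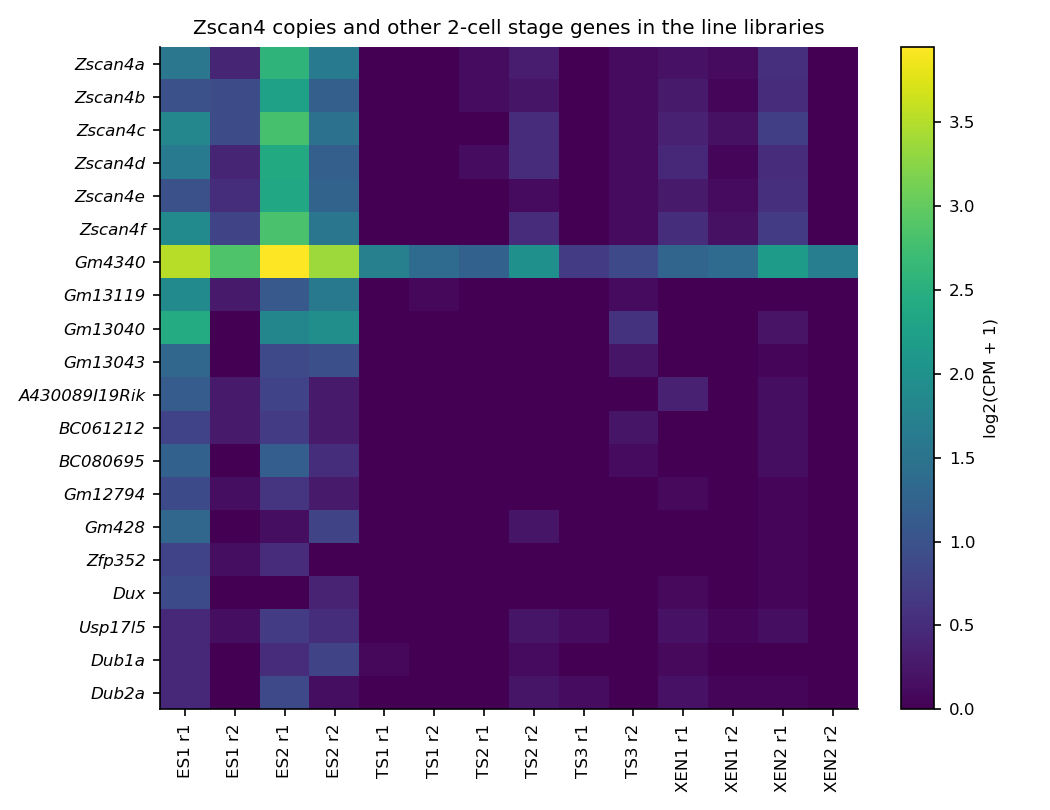
Level, as log2(CPM + 1), of the 6 Zscan4 rows and 14 other 2-cell stage genes (rows, picked after their values were seen) in the 14 line libraries (columns). The brighter cells lie in the 4 ES columns, and Gm4340 is the brightest row shown, with 10.5, 6.29, 14.4 and 9.40 CPM in the ES libraries. Listed genes called lower in ES than in TS or XEN, Slc2a6, Gm8994 and Dcaf11, are not shown, so the pattern follows from the choice of rows.

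In the embryos some 2-cell genes had many counts in all 8, and others had counts in some embryos only. Pramel6 was at 331 to 456 CPM in null, 355 and 422 CPM in heterozygous and 352 and 299 CPM in wild-type embryos, and Pramel7 at 297 to 467, 369 and 298, and 351 and 262 CPM. Gm4340 had 292 counts in the second null female, 0 in the other null embryos, 2 and 4 in heterozygous and 0 in wild-type embryos. BC061212 had 50 counts in the same null female and 0 in the other null embryos, 8 and 75 in heterozygous and 26 and 174 in wild-type embryos. These 2 genes were picked after their values were seen. Dux and Gm4981 had no count in any embryo. Of 23 tested, 0 were called between null and Nanog-bearing embryos by edgeR or DESeq2 and 0 had an unadjusted p under 0.05. Over all 12965 genes edgeR called 0.0154%, and 644 had an unadjusted p under 0.05, so few calls were to be had in any list. Pramel7 stood at 0.37 ± 0.20 and Zfp809, a zinc-finger repressor of retroviruses, at 0.64 ± 0.44 log2 units in that comparison.

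Of genes listed for a tie to the 2-cell program, whichever way they act, 8 of 9 in the table were tested in the lines. In ES against TS 3 were called higher and 2 lower, and in ES against XEN 6 higher and 1 lower, beside 20% and 23.4% of all genes called higher and 21.3% and 21.8% called lower. Dppa3 passed the filter only through the ES lines, and of the other 7 genes 2 were called higher and 2 lower against TS and 5 higher and 1 lower against XEN. Without ES cell 1 or without ES cell 2 fewer of the 8 were called against TS, as were fewer of all genes. Dppa2 and Dppa4, paired nuclear proteins upstream of Dux, were at 48.7 to 90.1 and 88.8 to 132 CPM in ES and at 39.5 to 66.3 and 39.1 to 91.3 CPM in TS libraries, against at most 0.553 and 0.205 CPM in XEN libraries. They were called higher in ES than in XEN by 7.19 and 9.45 log2 units (adjusted p of 1.61e-05 and 4.79e-05, edgeR), while their differences between ES and TS, 0.44 and 0.62, were not called.

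Dppa3, a maternal factor also called Stella, had 6, 13, 6 and 5 counts in ES libraries, 2 over all TS and none in XEN libraries. It was called higher in ES than in TS, with a ratio of summed levels of 31.9 and a counting interval of 8.09 to 275 (adjusted p = 0.0122, edgeR). Tbx3, a T-box factor that is tied to Zscan4 in ES cells, was higher in ES by 2.78 ± 0.29 log2 units than in TS and by 2.49 ± 0.33 than in XEN. Patz1 was higher in ES than in TS by 1.38 ± 0.17 log2 units, and Gata2, a trophoblast factor, was lower, at −4.57 ± 1.05. Smad7 was higher in ES than in XEN by 1.86 ± 0.21. All of these were called by edgeR, with adjusted p from 0.000596 to 0.0125. In the embryos 0 of 8 were called between null and Nanog-bearing by edgeR or DESeq2 and 1 had an unadjusted p under 0.05. Over all 12965 genes edgeR called 0.0154% there, and 644 were under that unadjusted p. Dppa3 was at 0.91 ± 0.38 and Lin28a at −0.87 ± 0.68.

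Genes known to keep the 2-cell program off were measured in full, 26 of 26. In ES against TS 13 were called higher and 2 lower, and in ES against XEN 11 higher and 3 lower, with medians of 0.61 and 0.37 log2 units beside −0.02 and 0.05 over all genes. In either direction that is 57.7% and 53.8%, beside 41.3% and 45.1% of all genes. Without ES cell 1 or ES cell 2 fewer of the 26 were called in both comparisons, and without XEN cell 1 or XEN cell 2 fewer against XEN. Fewer of all genes were called in these fits too. Trim28, a corepressor of retroviral elements, was at 1764 to 2013 CPM in ES, 627 to 783 CPM in TS and 435 to 506 CPM in XEN libraries, and its differences of 1.35 ± 0.14 and 1.67 ± 0.16 were called. Uhrf1, which maintains DNA methylation, was higher in ES by 1.71 and 1.46 log2 units, and Zfp42 by 3.80 and 7.46. Myc was lower in ES, at −2.60 and −3.07 log2 units. In the embryos 0 of 26 were called between null and Nanog-bearing by edgeR or DESeq2 and 1 had an unadjusted p under 0.05. Over all 12965 genes edgeR called 0.0154% there, and 644 were under that unadjusted p. Uhrf1 was at −0.84 ± 0.27 and Sumo2 at 0.64 ± 0.29.

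Telomere genes were included because Zscan4 is tied to telomere maintenance. Of 15 listed 14 were tested. In ES against TS 5 were called higher and 0 lower, and in ES against XEN 5 higher and 2 lower, which is 35.7% and 50% in either direction beside 41.3% and 45.1% of all genes. Dmc1 and Smc1b passed the filter only through the ES lines, and of the other 12 genes 4 were called higher and 0 lower against TS and 3 higher and 2 lower against XEN. Without ES cell 1 or ES cell 2 fewer of the 14 were called in both comparisons, and without XEN cell 1 fewer against XEN. Fewer of all genes were called in these fits too. Terf1, a shelterin protein that binds telomeric DNA, was higher in ES by 1.83 ± 0.20 and 2.13 ± 0.23 log2 units (adjusted p of 0.000695 and 0.000459, edgeR). Terf2 at 1.02, Pot1a at 1.40 and Pot1b at 1.36 log2 units were called higher in ES than in TS.

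Acd, another shelterin protein, was lower in ES than in XEN, at −1.24 ± 0.24 log2 units (adjusted p = 0.00528, edgeR). Dmc1, a meiotic recombinase, had 266 counts over ES and none over XEN libraries, which makes it at least 170-fold higher, and Smc1b, a meiotic cohesin, had 81 and 1, a ratio of 156 with a counting interval of 27.2 to 6223. Both were called, with adjusted p of 0.0133 and 0.00996 (edgeR). In the embryos 0 of 14 were called between null and Nanog-bearing by edgeR or DESeq2 and 0 had an unadjusted p under 0.05. Over all 12965 genes edgeR called 0.0154% there, and 644 were under that unadjusted p. Blm was at −0.72 ± 0.48 and Smc1b at −2.24 ± 1.70.

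The ES against TS and ES against XEN comparisons share the ES lines, so their counts are not separate evidence. The authors' deposited table of 78 Nanog-regulated genes held 0 of the 5 members, 0 of their family rows and 0 of the other 2-cell genes.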

How the data were processed

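RNA was measured by sequencing in 8 embryos and 14 libraries of 7 cell lines. The authors deposited raw counts per gene symbol, whole numbers with no normalization. Per the submitters' processing notes, TopHat 1.3.1, edgeR and build mm9 were used. The counting program, annotation, strand and read length stay unnamed here (not given in the sources used here). Another table deposited by the authors lists Nanog-regulated genes with a direction word, a unit of the kind other. Its 22 value columns were not used.

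CPM is a count divided by the library total. The main test was edgeR 4.0.16 (R 4.3.3, quasi-likelihood, robust, TMM, filterByExpr). Technical replicates were summed per line, and 7 lines were fitted together. The 14 libraries were fitted as 7 groups of passages to compare ES cell 1 with ES cell 2, and 8 embryos with genotype and sex. P-values were adjusted over all genes tested, with a threshold of 0.05, and the SE is the log2 fold change over the square root of F. Prior count was 2 for log2 CPM in correlations. The tests were run on simulated counts, where the only demand was that changed genes that were called mostly had the right direction. Intervals are exact Clopper-Pearson, made with scipy 1.17.1, and promoter windows were aligned with Biopython 1.88. Shared words were counted on transcripts of GRCm38, another build than that of the counts.

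The members and lists were chosen with earlier results of these data known. Named were the members and their families, and from each other list up to 4 called genes by smallest p, or 2 at lowest p. Alternatives were DESeq2 1.42.0, RLE scaling, no filter, no sex term, copies summed, a replicate block (limma 3.58.1) and left-out lines, libraries or embryos. Same-numbered technical replicates of different lines did not deviate together (r −0.33 to 0.13, 2 of 21 pairs over 0.1).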

Additional observations from a re-analysis of the deposited data

Results flagged for a closer look

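In 62 groups of 4 to 6 libraries the most extreme library was set against the rest by Dixon's criterion, and 9 had a library standing apart. The criterion's rate of about 1 in 20 holds for independent, normal values. Libraries of a line are not independent, counts are few, and some rows share sequence or hold the same counts. The 9 are therefore not separate and cannot be set against that rate. The second library of TS cell 2 stood above the other TS libraries at 0.412 CPM for Zscan4c, 0.412 CPM for Zscan4d and 0.412 CPM for Zscan4f, each 5 counts. The first library of ES cell 2 stood above the other ES libraries for Zscan4b, at 3.77 CPM. The second library of ES cell 1 stood above the other ES libraries for BB287469, a row listed with Eif1a, at 29.3 CPM.

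Among null embryos, the second female stood highest for Tdpoz2, at 2.65 CPM, and for Gm2022, a row listed with Eif1a, at 33.8 CPM. The second null male stood highest for Tdpoz5 and for Gm10697, which had the same counts, at 11.3 CPM each. The second null female also had 117 counts of Nlrp5 and 261 of Nlrp14, both oocyte genes, and the second null male 67 counts of Dcn, a fibroblast gene. Oocyte transcripts were not particular to that female. Over 12 oocyte markers she had 389 counts, the wild-type male 266 and the wild-type female 106. The part of these transcripts in the values that stand apart was not tested.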

How the results depend on the processing

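Zscan4c, Zscan4d and Zscan4f kept their direction in the line comparisons under each alternative run. Counts are few, annotated copies share sequence, and each lineage has 2 or 3 lines. In the line comparisons each line was left out in turn, and of the 14 libraries 2 alone, the first of ES cell 2 and the first of XEN cell 2. In the embryos and between the ES lines each library was left out in turn. The ranges follow, in log2 units. For ES against TS they were 4.20 to 6.78 (Zscan4c), 3.46 to 6.28 (Zscan4d), 4.21 to 6.80 (Zscan4f) and −0.28 to 0.094 (Eif1a, above 0 without TS cell 3). For ES against XEN they were 2.16 to 4.15, 2.15 to 3.85, 2.11 to 3.86 and 0.49 to 0.64, where 4.15, 3.85, 3.86 and 0.49 are without that XEN library. Eif1a in TS against XEN ran over 0.49 to 0.87. Between ES cell 1 and ES cell 2 Eif1a ran over −0.11 to 0.26, below 0 without the second library of ES cell 1. Between heterozygous and wild-type embryos Tdpoz1 ran over −0.89 to 2.17 and Eif1a over −0.054 to 0.25. Tdpoz1 was −0.89 there without the heterozygous female, −0.40 without the wild-type male and −0.34 without the wild-type male and the second null female, and Eif1a −0.054 without the wild-type female.

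Against XEN, adjusted p fell under 0.05 for Zscan4f with DESeq2 (2.91) and, in the fit with a replicate block, for Zscan4c (3.13) and Eif1a (0.60). Without TS cell 1 or TS cell 2 it did so for Zscan4c, Zscan4d and Zscan4f, and without TS cell 3 for Eif1a. Technical replicate numbers do not pair the lines, and no other call of a member in the fit changed with the block. Genes called ran over 2429 to 6233 for ES against TS, where edgeR called 6063, and 3997 to 7646 for ES against XEN, where it called 6630, lowest with 1 ES line in the fit, which is then assumed to vary as the other lines do. Between ES cell 1 and ES cell 2 they ran over 18 to 42, with 44 by edgeR, 156 by DESeq2, 82 with no filter and 32 with the replicate block. Between null and Nanog-bearing embryos they ran over 1 to 2, with 2 by edgeR, 140 by DESeq2, 50 with no filter, 1 without the first null female and second null male, and 1 without the wild-type male and second null female. Between null and wild type they ran over 1 to 3, with 2, 145, 37, 1 and 0 in the same order. Between heterozygous and wild-type embryos edgeR called 0, with 107 genes under an unadjusted p of 0.05, DESeq2 100 and no filter 4. Leaving out the first library of ES cell 2, the first of XEN cell 2, or the wild-type male with the second null female was chosen after seeing the data. The causes were not tested.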
